A study of Mus musculus with 9 samples.

Results

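Vesicle miRNAs of podocytes kept in high glucose were compared with those of podocytes kept in mannitol at a matched osmolality. The comparison holds 6 of the 9 libraries of the series, chosen by their treatment label alone, and covers all 1915 mouse miRNA identifiers of the deposited tables. All cells were of a conditionally immortalized mouse podocyte line that had spent 10 days differentiating in a medium that held fetal bovine serum, and the polymer reagent ExoQuick-TC was used to precipitate vesicles from their supernatant. The 3 high glucose libraries came from cells given 30 mM glucose for 48 h. The 3 mannitol libraries came from cells given 5.3 mM glucose and 24.7 mM mannitol for 48 h. The other 3 libraries, from cells given 5.3 mM glucose alone, entered the joint fit and are quoted only for reference. The line is a single cell model without the other cells of the kidney filter, and serum in the medium carries vesicles and miRNAs of its own. Whether libraries of the same group are from separate cultures is not stated in the labels, and the p-values then measure the spread between these libraries, which may be technical.

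Podocytes are epithelial cells of the glomerulus, whose foot processes cover its capillaries and form part of the kidney filter, and their injury and loss are central to diabetic kidney disease. Raising glucose in culture also raises the osmolality of the medium, and mannitol, which cells take up poorly, raises osmolality without adding glucose. The question of the comparison is therefore what glucose does beyond its osmotic load. A miRNA is a short RNA that guides Argonaute proteins to messenger RNAs, mainly through its seed, here bases 2 to 8, so miRNAs with the same seed share most of their predicted targets. Each hairpin precursor can give a 5p and a 3p arm, and usually one of them, the guide, is kept. Small extracellular vesicles carry miRNAs out of the cell, together with fragments of other small RNAs.

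No miRNA passed the test between high glucose and mannitol. Those with the smallest p were miR-3535, miR-19b-3p, miR-182-5p, miR-16-5p and miR-30a-5p with a higher mean in high glucose, and miR-23b-5p, miR-7666-3p, miR-486a-5p, miR-423-5p and miR-760-3p with a higher mean in mannitol, at log2 fold changes from -1.03 to 1.58. The mature sequences of most of these and of other miRNAs described below are printed with the seed in capitals, as RefSeq gives them for GRCm38.p6, because the results below group miRNAs by seed, arm and base composition. RefSeq held a mature sequence for 308 of the 361 miRNAs tested. The first 11 lines are miRNAs with a higher fitted level in high glucose, with miR-19a-3p added as the partner of miR-19b-3p.
miR-3535: uGGAUAUGaugacugauuaccugaga
miR-19b-3p: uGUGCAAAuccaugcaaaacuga
miR-19a-3p: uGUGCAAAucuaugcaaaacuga
miR-182-5p: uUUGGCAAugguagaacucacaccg
miR-183-5p: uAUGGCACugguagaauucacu
miR-16-5p: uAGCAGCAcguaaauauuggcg
miR-30a-5p: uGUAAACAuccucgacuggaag
miR-192-5p: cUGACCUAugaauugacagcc
miR-7a-5p: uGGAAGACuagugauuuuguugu
miR-221-5p: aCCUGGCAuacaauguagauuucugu
miR-155-5p: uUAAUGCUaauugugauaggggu
The next 8 lines are miRNAs with a lower fitted level in high glucose.
miR-23b-5p: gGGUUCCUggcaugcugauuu
miR-423-5p: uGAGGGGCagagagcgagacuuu
miR-760-3p: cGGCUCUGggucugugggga
miR-615-3p: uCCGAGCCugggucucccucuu
miR-543-3p: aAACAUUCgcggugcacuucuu
miR-125b-1-3p: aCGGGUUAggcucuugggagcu
miR-433-3p: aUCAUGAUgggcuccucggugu
miR-99a-5p: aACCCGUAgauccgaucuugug
Of the miRNAs with a sequence and an unadjusted p under 0.05, the higher ones had a median GC content of 42.3% and the lower ones of 57.8%. miR-19a-3p and miR-19b-3p share the seed GUGCAAA, and the other seeds above are each held by one of the printed miRNAs.

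Total miRNA counts were 725211, 1276674 and 2553690 in high glucose replicates 1, 2 and 3, and 1329426, 1588723 and 2269776 in mannitol replicates 1, 2 and 3. Of 479 identifiers listed in any library, 468 were listed in these 6 libraries and 361 were tested. The smallest listed count was 10, so a 0 in the tables can hide up to 9 reads, and 10 reads are 13.8 CPM, that is counts scaled to a total of 1000000 miRNA counts, in high glucose replicate 1. The miRNAs of the podocyte were present: miR-30a-5p ranked first by its mean over the 6 libraries, although miR-10a-5p and miR-10b-5p were above it in mannitol replicate 3, and all 5 guide arms of the miR-30 family, known as podocyte miRNAs, were listed in all 6 libraries. Scaled to the library constant, by which the authors divided each library's counts, instead of by TMM (the trimmed mean of ratios between libraries), the median log2 fold change of all tested miRNAs moved from -0.04 to -0.63, and fold changes are to be read relative to that median. All miRNA counts made up 3.43%, 5.58% and 8.01% of that constant in high glucose and 5.91%, 6.74% and 9.71% with mannitol, so the groups overlapped. Liver and blood miRNAs were present too: miR-122-5p lay between 9566 and 22512 CPM, while miR-142a-3p was listed at 0 in all 6 libraries.

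Mannitol replicate 2 and high glucose replicate 1 stood apart from the other libraries of their groups. Over the 361 tested miRNAs, log2(CPM + 8) of mannitol replicate 2 correlated at 0.992 with high glucose replicate 2 and at 0.989 with high glucose replicate 3, but at 0.964 with both other mannitol libraries. High glucose replicate 1 correlated at 0.978 with mannitol replicate 1, above its 0.968 and 0.972 with the other high glucose libraries. High glucose replicates 2 and 3 correlated at 0.988 with each other, and mannitol replicates 1 and 3 at 0.982. These are descriptions over miRNAs of the same libraries. Results are given below with all libraries and, where it matters, without mannitol replicate 2 or high glucose replicate 1. Leaving out a library that resembles the other group tends to widen the difference between groups. Calls made without such a library are therefore descriptions.

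**Figure D1:**
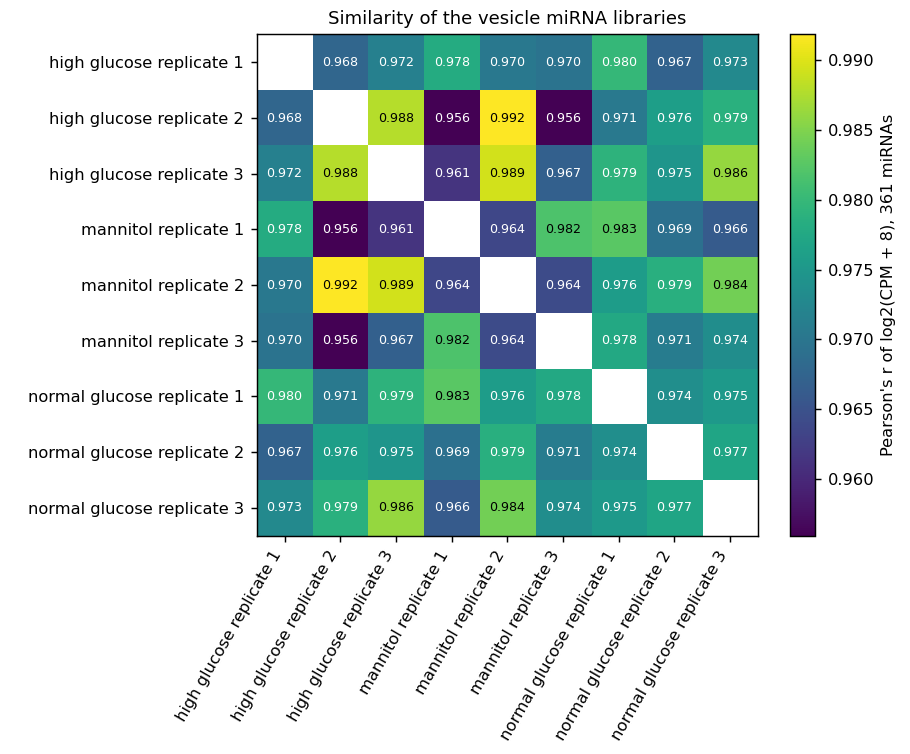
Pearson's r of log2(CPM + 8) between each pair of the 9 libraries over 361 miRNAs, with both axes listing the libraries by group and replicate and the colour giving r. Mannitol replicate 2 has its highest values, 0.992 and 0.989, with high glucose replicates 2 and 3, and 0.964 with the other mannitol libraries.

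By edgeR's quasi-likelihood test 0 of 361 miRNAs passed an adjusted p of 0.05 (percent called 0), and the smallest adjusted p was 0.704. At an unadjusted p under 0.05 there were 19 miRNAs (5.26% of those tested), 8 higher (2.22%) and 11 lower (3.05%) in high glucose, and DESeq2 gave 26 (7.2%). Scaled to the library constant the split was 1 higher and 61 lower, and with zeros in the tables set to 9 reads it was 10 higher and 47 lower. With the replicate block, which pairs libraries of the same number, 52 miRNAs (14.4%) were under an unadjusted p of 0.05, 23 of them higher, and again 0 passed. Without mannitol replicate 2 that count was 96 of 372 (25.8%), with 56 higher, and 1 miRNA passed (0.269%), miR-19b-3p. Without mannitol replicate 3 or 1 the count was 6 or 7, without high glucose replicate 1 it was 37, and without high glucose replicate 2 it was 10. DESeq2 called 1 miRNA (0.277%), miR-182-5p, at a log2 fold change of 0.60 and an adjusted p of 0.0120.

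In 37 miRNAs (10.2%) the 3 high glucose libraries lay all above or all below the 3 mannitol libraries in CPM. Of these, 9 (2.49%) were higher and 28 (7.76%) lower in high glucose. The lower ones were mostly rare: 19 of the 28 had a mean under 100 CPM, and 12 of the 28 were listed at 0 in at least 1 high glucose library, where up to 9 reads may be hidden. Of the 75 miRNAs with a mean of at least 1000 CPM, 42 had a 95% interval that stayed within a 2-fold change in either direction, and 0 had a fitted log2 fold change beyond 1. The median SE of the log2 fold change was 0.30 in these 75, 0.34 in the 88 miRNAs from 100 to under 1000 CPM and 0.89 in the 198 rarer ones. The median 95% interval of the rarer ones reached 1.90 to either side on the log2 scale, so a 2-fold difference was mostly not detectable there.

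Among the 20 miRNAs named by the smallest p, 10 in each direction, the normal glucose mean lay between the high glucose and mannitol means for 16, or 80.0%. For all 361 tested miRNAs it did so for 165, or 45.7%. The named miRNAs were chosen for the distance between high glucose and mannitol, so this count is a description.

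**Figure D2:**
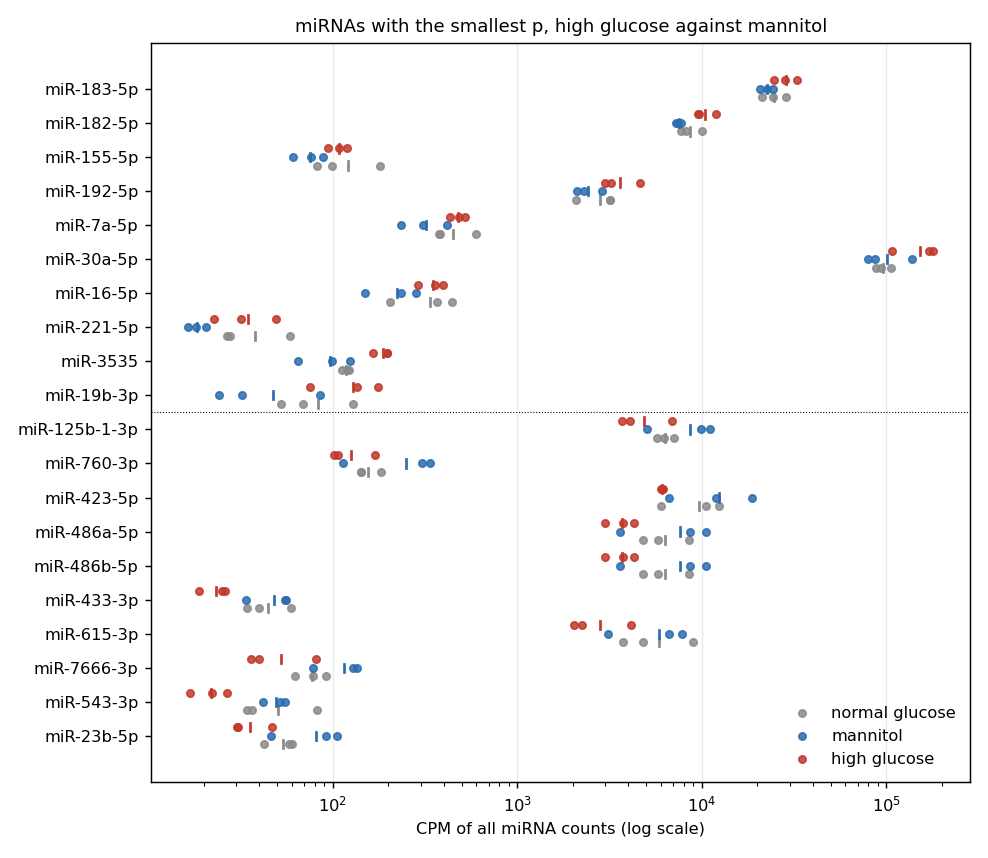
CPM of all miRNA counts (log axis) in each library for the 20 miRNAs with the smallest p, 10 higher in high glucose above the dotted line and 10 lower below it; points are libraries and short vertical bars are group means of 3. The red high glucose points lie apart from the blue mannitol points for miR-3535, with 165 CPM as the lowest and 125 CPM as the highest, and overlap or nearly touch in others such as miR-16-5p.

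miR-3535 had the smallest p of all miRNAs. Its level was 196, 198 and 165 CPM in high glucose replicates 1, 2 and 3 and 99.3, 125 and 65.2 CPM with mannitol, while normal glucose gave 122, 120 and 112 CPM. All high glucose libraries were above all others. The log2 fold change was 1.09 (SE 0.34, adjusted p = 0.704, edgeR), 1.45 without mannitol replicate 2 and 1.06 without high glucose replicate 1. This identifier is also the end of a small nucleolar RNA. RefSeq places it on the minus strand of chromosome 1 from 86352062 to 86352087 (GRCm38.p6), and GENCODE M21 annotates the snoRNA gene Gm24148 there, from 86352008 to 86352087, inside an intron of Ncl, which encodes the nucleolar protein nucleolin. The miRNA is bases 1 to 26 of the 80 bases of the snoRNA. The transcript holds ATGATGA at base 6, within the miRNA, and CTGA last at base 72. These are forms of box C and box D, the elements of the C/D class of snoRNAs, which guide ribose methylation of other RNAs. The snoRNA transcript is printed with the miRNA in capitals, beside Snord33, whose bases 3 to 23 are miR-5121.
Gm24148: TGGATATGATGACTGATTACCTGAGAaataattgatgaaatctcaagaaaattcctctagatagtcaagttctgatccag
Snord33: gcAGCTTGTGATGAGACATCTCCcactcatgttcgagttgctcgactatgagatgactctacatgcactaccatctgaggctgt
AUGAUGA or GUGAUGA was found in 4 of the 308 tested mature sequences (1.30%), miR-3535, miR-5121, miR-200b-3p and miR-130b-3p. miR-5121 was at 921, 566 and 721 CPM in high glucose and 1601, 541 and 1154 CPM with mannitol, with overlapping groups and a log2 fold change of -0.40 (SE 0.40). Reads of these identifiers cannot be told apart from fragments of the snoRNAs. In all, 10 tested identifiers lay within an annotated small nucleolar or Cajal body RNA. Of these, 6 were higher and 4 lower in high glucose, with a median log2 fold change of 0.03. In 1 of the 10, miR-3535, the groups did not overlap, near the 10.2% of all miRNAs tested.

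The miR-19 seed family gave the largest fold among the 10 higher miRNAs with the smallest p. miR-19b-3p, a member of the growth-linked miR-17 cluster, was at 75.8, 135 and 177 CPM in high glucose and at 24.1, 85.6 and 32.2 CPM with mannitol. Mannitol replicate 2 overlapped the high glucose range and the other mannitol libraries were lower. The log2 fold change was 1.58 (SE 0.52) with all libraries and 2.47 without mannitol replicate 2, where it passed with an adjusted p of 0.0465 by edgeR. miR-19a-3p was listed at 0, 19.6 and 33.3 CPM in high glucose and at 0, 8.18 and 5.29 CPM with mannitol. miR-19b-3p comes from hairpins on chromosome 14 from 115044305 to 115044391, within an exon of the long noncoding RNA Mir17hg, and on chromosome X from 52741983 to 52742066. All 4 tested members of the miR-17 seed family, some of which share the Mir17hg precursor, had positive log2 fold changes, with a median of 0.52 against -0.04 for all tested miRNAs and 0 of 4 at an unadjusted p under 0.05. Without mannitol replicate 2 the median was 0.97 with 4 of 4 under that p, against 25.8% of all miRNAs tested. Without mannitol replicate 3 the median was 0.30, and scaled to the library constant it was 0.08. Its most abundant member miR-93-5p was at 2260, 2169 and 2387 CPM in high glucose and at 2217, 2259 and 1312 CPM with mannitol. miR-20a-5p was at 1190, 1132 and 1037 CPM against 687, 1222 and 326 CPM. For both, mannitol replicate 3 was lowest and mannitol replicate 2 reached the high glucose libraries.

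The miR-30 family, which restrains calcineurin signalling in podocytes, was among the most abundant families. miR-30a-5p was at 107944, 179693 and 170597 CPM in high glucose and at 86608, 137096 and 79829 CPM with mannitol. Its groups overlapped, since mannitol replicate 2 lay above high glucose replicate 1. The log2 fold change was 0.75 (SE 0.32), and 1.16 without mannitol replicate 2. miR-30d-5p was at 40079, 42500 and 33972 CPM against 39561, 37703 and 25759 CPM, a log2 fold change of 0.34 (SE 0.27). All 5 guide arms were positive, with a median of 0.41 (0.26 without mannitol replicate 3). Under an unadjusted p of 0.05 was 1 of the 5, against 5.26% of all miRNAs tested. Relative to the library constant the median was -0.17 against -0.63 for all tested miRNAs. The summed level of the guide arms was 149949, 224982 and 206766 CPM in high glucose and 127759, 177083 and 106713 CPM with mannitol, a ratio of means of 1.41 (exact permutation test, two-sided, p = 0.2, adjusted p = 0.545 over 30 measures). The smallest p that 3 libraries against 3 can give is 0.1.

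The miR-183 cluster, made of miR-183, miR-96 and miR-182 and known from sensory cells and epithelia, included a pair of abundant miRNAs whose groups did not overlap. Of all miRNAs tested, 2.49% had all high glucose libraries above all mannitol libraries. miR-182-5p was at 11928, 9503 and 9706 CPM in high glucose and at 7284, 7421 and 7758 CPM with mannitol. miR-183-5p was at 32985, 28374 and 24563 CPM against 24324, 22560 and 20694 CPM. The margin was narrow for miR-183-5p, whose lowest high glucose and highest mannitol libraries nearly touched. The log2 fold changes were 0.61 (SE 0.24) and 0.49 (SE 0.25), and 0.03 and -0.09 when scaled to the library constant. miR-96-5p had overlapping groups and a log2 fold change of 0.71 (SE 0.48). The 3 hairpins lie within 4 kb on the minus strand of chromosome 6, from 30165918 to 30169737, outside other annotated genes. The summed level of the cluster was 1.30 times higher in high glucose with all libraries and 1.30 without mannitol replicate 2 (exact permutation test, p = 0.1, adjusted p = 0.545).

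miR-16-5p, which represses cell cycle genes such as cyclins, was at 290, 395 and 359 CPM in high glucose and at 282, 234 and 150 CPM with mannitol, a log2 fold change of 0.83 (SE 0.33). The groups did not overlap, but 290 and 282 CPM nearly touched, and normal glucose gave 366, 205 and 444 CPM. Its hairpins lie in an exon of the noncoding RNA Dleu2 on chromosome 14, from 61631880 to 61631972, and in an intron of Smc4 on chromosome 3, from 69009902 to 69009996. miR-192-5p, a kidney tubule and gut miRNA linked to fibrosis in diabetic kidney, was at 4635, 2986 and 3233 CPM against 2108, 2880 and 2294 CPM, a log2 fold change of 0.69 (SE 0.30) and 0.51 without high glucose replicate 1. Its groups did not overlap. All 3 tested tubule markers were positive, with a median of 0.49, of 0.32 without mannitol replicate 1 and of 0.03 when scaled to the library constant. The summed tubule level was 5008, 3323 and 3649 CPM in high glucose and 2348, 3211 and 2605 CPM with mannitol, while the tubule marker miR-204-5p was listed at 0 in all 6 libraries. Its other arm, miR-204-3p, which was not on the list, had 0, 0 and 20 counts in high glucose and 33, 19 and 68 counts with mannitol.

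miR-7a-5p, processed from an intron of Hnrnpk and from a further locus, was at 524, 431 and 482 CPM in high glucose and at 307, 417 and 234 CPM with mannitol. miR-155-5p, an inflammatory miRNA, was at 120, 94.8 and 109 CPM against 60.9, 76.2 and 88.6 CPM. miR-221-5p, the minor arm of a cell-cycle miRNA hairpin on chromosome X, was at 31.7, 22.7 and 49.3 CPM against 16.5, 18.3 and 20.7 CPM. In these 3 miRNAs all high glucose libraries were above all mannitol libraries, at log2 fold changes of 0.71 (SE 0.31), 0.65 (SE 0.34) and 1.05 (SE 0.48). Normal glucose levels of miR-155-5p and miR-221-5p reached 182 and 58.7 CPM, above every high glucose library. miR-7a-5p also exceeded every high glucose library in normal glucose replicate 3, with 659 of its 1107224 counts.

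Among the lower miRNAs, miR-423-5p had the most uniform level in high glucose. It was at 6120, 6179 and 6045 CPM there and at 11889, 6676 and 18673 CPM with mannitol, a log2 fold change of -0.85 (SE 0.35) and -0.40 at the weakest when 1 library was left out. The spread lay in the mannitol libraries, whose replicate 2 was within 1000 CPM of high glucose. miR-423 belongs to a list of miRNAs made without the usual Drosha cut or with a capped 5′ end. All 5 tested members of that list were lower, with a median of -0.12 that turned to 0.05 with the trend with GC content removed, and the other 4 lay between -0.55 and -0.10. Their summed level was 16075, 15999 and 13913 CPM in high glucose and 24711, 16292 and 29741 CPM with mannitol (exact permutation test, p = 0.1, adjusted p = 0.545).

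Some other lower miRNAs were arms that are usually minor. In these libraries, though, miR-125b-1-3p mostly had more counts than miR-125b-5p, for example 14686 against 10362 in mannitol replicate 1. High glucose replicate 3 went the other way, at 9476 against 10415. miR-23b-5p was at 46.9, 30.5 and 30.2 CPM in high glucose and at 106, 46.6 and 92.5 CPM with mannitol, a log2 fold change of -1.03 (SE 0.36). miR-125b-1-3p was at 6888, 4079 and 3711 CPM against 11047, 5066 and 9864 CPM, a log2 fold change of -0.67 (SE 0.31). In both, mannitol replicate 2 lay near or within the high glucose range. The hairpin of miR-23b lies in an intron of 2010111I01Rik on chromosome 13, from 63300484 to 63300557.

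miR-615-3p, made from an intron of the body-patterning gene Hoxc5, was at 4124, 2234 and 2034 CPM in high glucose and at 7779, 3116 and 6669 CPM with mannitol, a log2 fold change of -0.91 (SE 0.40). miR-760-3p was at 170, 107 and 102 CPM against 304, 113 and 335 CPM, at -0.84 (SE 0.36). miR-7666-3p was at 81.4, 39.9 and 36.0 CPM against 136, 78.7 and 129 CPM, at -1.01 (SE 0.35). For these 3 miRNAs the groups overlapped through high glucose replicate 1 and mannitol replicate 2.

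miR-543-3p and miR-433-3p come from the imprinted Dlk1-Dio3 region of chromosome 12, whose miRNAs are expressed from the maternal allele. miR-543-3p was at 22.1, 26.6 and 16.8 CPM in high glucose and at 54.9, 42.2 and 51.5 CPM with mannitol. miR-433-3p was at 26.2, 25.1 and 18.8 CPM against 54.9, 34.0 and 56.0 CPM. Both had no overlap of groups, at log2 fold changes of -1.01 (SE 0.45) and -0.89 (SE 0.41). Of the 17 tested miRNAs between 109709060 and 109743795, miR-543-3p among them, 8 were higher and 9 lower, with a median of -0.01. In 3 of the 17 all high glucose libraries lay below mannitol, against 7.76% of all miRNAs tested.

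miR-486a-5p and miR-486b-5p had identical counts in all libraries and are one measurement. This red cell miRNA was at 4298, 2985 and 3758 CPM in high glucose and at 8628, 3627 and 10582 CPM with mannitol, a log2 fold change of -0.88 (SE 0.36) and -1.16 without mannitol replicate 2. Of the other 5 tested markers of blood, immune cells and liver, miR-451a, miR-142a-5p and miR-122-5p had negative log2 fold changes, while miR-223-3p and miR-150-5p, both under 50 CPM in all 6 libraries, had positive ones that turned negative without high glucose replicate 1. The liver miRNA miR-122-5p was at 21078, 10360 and 9566 CPM against 16969, 11659 and 22512 CPM. The summed level of this list was 25642, 13495 and 13556 CPM in high glucose and 25947, 15507 and 33520 CPM with mannitol. The source of these miRNAs, which serum also carries, was not tested.

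miR-99a-5p, an mTOR-linked miRNA, was at 2967, 2938 and 3386 CPM in high glucose and at 4669, 4002 and 5301 CPM with mannitol. All high glucose libraries were lower, and the log2 fold change was -0.43 (SE 0.25). miR-181a-5p and miR-181b-5p also had CPM ranges that did not overlap, yet their fitted log2 fold changes after TMM scaling were -0.09 (SE 0.29) and -0.10 (SE 0.27). Ranges of CPM that do not overlap are therefore sensitive to the scaling between libraries.

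The value of a striated muscle miRNA rested on 1 library. miR-1a-3p was at 302, 132 and 170 CPM in high glucose and at 123, 208 and 3822 CPM with mannitol, where replicate 3 held the high value. The log2 fold change was -2.70 (SE 1.58) with all libraries and 0.36 without mannitol replicate 3. All 5 tested muscle miRNAs were lower, with a median of -0.56, of -0.08 without mannitol replicate 3 and of -1.02 without high glucose replicate 3. The muscle miRNA miR-206-3p was at 1340, 1144 and 1187 CPM against 1616, 998 and 1655 CPM, a log2 fold change of -0.05 (SE 0.30).

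miRNAs known from diabetic kidney disease formed a list that was drawn up with earlier results known. Of its 21 members 14 were tested, and 5 were listed at 0 in all 6 libraries. Of the 14 tested members 13 had positive log2 fold changes, with a median of 0.39 against -0.04 for all tested miRNAs. Scaled to the library constant these medians were -0.10 and -0.63. An unadjusted p under 0.05 was found for 1 of the 14, against 5.26% of all miRNAs tested. Without mannitol replicate 2 the median was 0.67 and 8 of the 14 were under that p, as were 25.8% of all miRNAs tested. The median was 0.26, 0.25 and 0.24 without mannitol replicate 1, high glucose replicate 2 and high glucose replicate 3. With the GC trend removed 10 of 14 were positive at a median of 0.14. miR-21a-5p, a fibrosis-linked miRNA, was at 46763, 72882 and 75817 CPM in high glucose and at 40158, 76516 and 34139 CPM with mannitol. Its log2 fold change was 0.51 (SE 0.35), and 1.09 without mannitol replicate 2, which held its highest level. miR-29a-3p, which targets collagens, was at 979, 1675 and 1873 CPM against 1034, 1790 and 892 CPM, at 0.44 (SE 0.37). Of 11 tested miRNAs of insulin and glucose metabolism 9 were higher, with a median of 0.31 and of -0.18 when scaled to the library constant. That median was 0.59 without mannitol replicate 2, 0.09 and 0.08 without mannitol replicates 1 and 3, and 0.16 without high glucose replicate 2. Their lead, miR-378a-3p, was at 55345, 59487 and 50503 CPM in high glucose and 54614, 67044 and 44606 CPM with mannitol, at 0.14 (SE 0.26). The summed level of the kidney disease list had a ratio of means of 1.12 and that of the metabolic list of 0.98.

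The let-7 family, tumour-suppressor miRNAs of differentiated cells, was even, with 5 of 9 higher and a median of 0.03. The Hox cluster miRNAs miR-10a-5p and miR-10b-5p, among the 3 most abundant miRNAs, had log2 fold changes of -0.02 (SE 0.25) and 0.23 (SE 0.25). The epithelial miR-200 family had 3 of 4 higher at a median of 0.34 (0.61 without mannitol replicate 2, 0.21 without mannitol replicate 3, 0.14 without high glucose replicate 2). The mesenchymal list, in which miR-199a-3p and miR-199b-3p have identical counts and are one measurement, had 6 of 7 higher at 0.32. With the replicate block that was 4 of 7 at 0.02, and without mannitol replicate 1 it was 4 of 7 at 0.09. All 3 tested miR-15/16 miRNAs had positive values at a median of 0.83 (0.21 without high glucose replicate 3, 0.35 without mannitol replicate 1, 0.08 scaled to the library constant), although miR-15a-5p and miR-15b-5p lay under 20 CPM in all 6 libraries. The miR-26 and miR-101 list had 4 of 4 positive at 0.54 (1.23 without mannitol replicate 2, 0.29 and 0.31 without mannitol replicates 1 and 3), with miR-26a-5p, a miRNA of differentiated cells, at 2802, 3401 and 2440 CPM in high glucose and 2496, 3916 and 1867 CPM with mannitol. In the miR-23/27/24 clusters 6 of 9 were higher at 0.06, with miR-24-3p at 0.00 (SE 0.26). The miR-25/92 seed family, only some of whose members are encoded beside the miR-17 family in the same precursors, had 3 of 4 lower at -0.28. Its member miR-92a-3p was at 8957, 4631 and 6726 CPM in high glucose and at 13318, 4842 and 16343 CPM with mannitol, at -0.61 (SE 0.40), and mannitol replicate 2 again lay within the high glucose range. The hypoxia and inflammation list was divided, 4 of 7 higher at 0.21, and its member miR-210-3p, the classic hypoxia miRNA, was at 49.6, 36.0 and 46.2 CPM against 70.7, 64.2 and 68.7 CPM, at -0.48 (SE 0.36) without overlap. Neural miRNAs had 2 of 5 higher at -0.27 (-0.80 and -0.13 without high glucose replicates 1 and 3, -0.17 without mannitol replicate 1). Both endothelial miR-126a arms had positive log2 fold changes, with miR-126a-3p at 0.52 (SE 0.40) and miR-126a-5p listed at 0 in 2 of the 6 libraries. Their median was 1.05, 0.50 without high glucose replicate 1 and 0.34 with the replicate block. Their summed level had a ratio of means of 1.37, and of 0.995 without high glucose replicate 1. In the list drawn up as rRNA or tRNA fragments 4 of 4 were lower at a median of -0.80 (-0.39 without mannitol replicate 1, -1.39 without high glucose replicate 1), although its member miR-5121 lies in the snoRNA Snord33; with the GC trend removed 3 of 4 were lower at -0.31. Scaled to the library constant, the lists above the median of all tested miRNAs stayed above it and those below stayed below, while the medians of the miR-30 guide and other arms and of the let-7, Hox, miR-23/27/24, miR-200, diabetic kidney, metabolic, hypoxia and mesenchymal lists were negative. With the trend with GC content removed, the medians of the let-7, miR-200, Hox, hypoxia and non-canonical lists turned in sign.

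**Figure D3:**
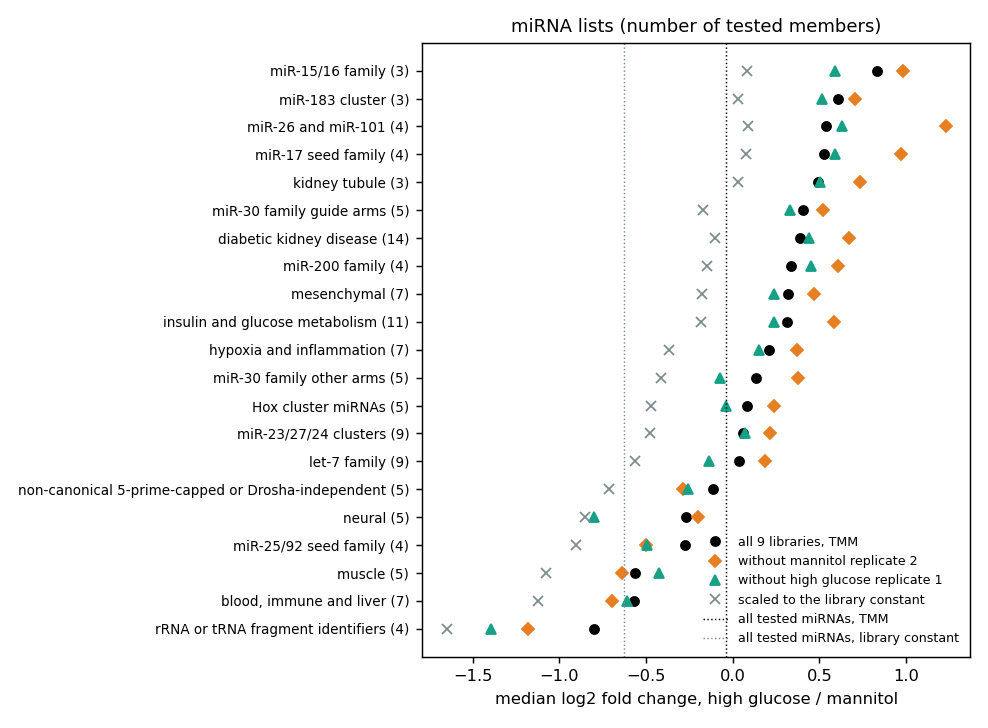
Median log2 fold change of high glucose over mannitol for each list with at least 3 tested members (number in brackets), with all 9 libraries, without mannitol replicate 2, without high glucose replicate 1 and scaled to the library constant; dotted lines mark the median of all tested miRNAs, -0.04 and -0.63 for that constant. The miR-15/16, miR-183 and miR-17 lists lie to the right of the dotted line under each of the 4 settings, and the rRNA or tRNA list to its left.

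Counts were also summed over miRNAs that share a seed, which measures the pool of a targeting sequence. Of 252 seed families tested 0 passed (percent called 0), with a smallest adjusted p of 0.550 by edgeR, while 19 (7.54%) were under an unadjusted p of 0.05, 7 higher (2.78%) and 12 lower (4.76%). In 29 families (11.5%) the groups did not overlap, 8 higher (3.17%) and 21 lower (8.33%). The families with the smallest p were those of miR-3535, miR-19 and miR-182 among the higher, and of miR-23b-5p, miR-423-5p and miR-615-3p among the lower. The summed miR-19 family was at 75.8, 154 and 210 CPM in high glucose and at 24.1, 93.8 and 37.4 CPM with mannitol, a log2 fold change of 1.61 (SE 0.54). Sums cover only identifiers with a RefSeq sequence, so the seed GUAAACA is represented by miR-30a-5p, miR-30c-5p and miR-30e-5p, without the guide arms miR-30b-5p and miR-30d-5p. This partial sum was at 109803, 182405 and 172695 CPM against 88116, 139304 and 80875 CPM, at 0.70 (SE 0.30). With the replicate block 42 families had an unadjusted p under 0.05 and 0 passed.

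Without mannitol replicate 2, 12 of 262 seed families passed at an adjusted p of 0.0490 by edgeR, 5 higher and 7 lower in high glucose. That library was the mannitol library most like high glucose, so its omission favours such calls. The higher families were those of miR-21a-5p, miR-3535, miR-30a-5p, miR-19b-3p and miR-101b-3p. The lower families were those of miR-1198-5p, miR-125b-1-3p, miR-423-5p, miR-744-5p, miR-760-3p, miR-23b-5p and miR-877-3p. The log2 fold change of the miR-21a family was 0.47 with that library and 0.996 without it. Without mannitol replicate 1 or 3, 0 families passed. Among the 12, the miR-19 family also passed without the expression filter (adjusted p = 0.0107, edgeR). The miR-19 and miR-3535 families passed with the replicate block in these 6 libraries only. The pairing of that block was inferred from these same counts, and the setting was added after the data were seen, so it is no independent support.

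**Figure D4:**
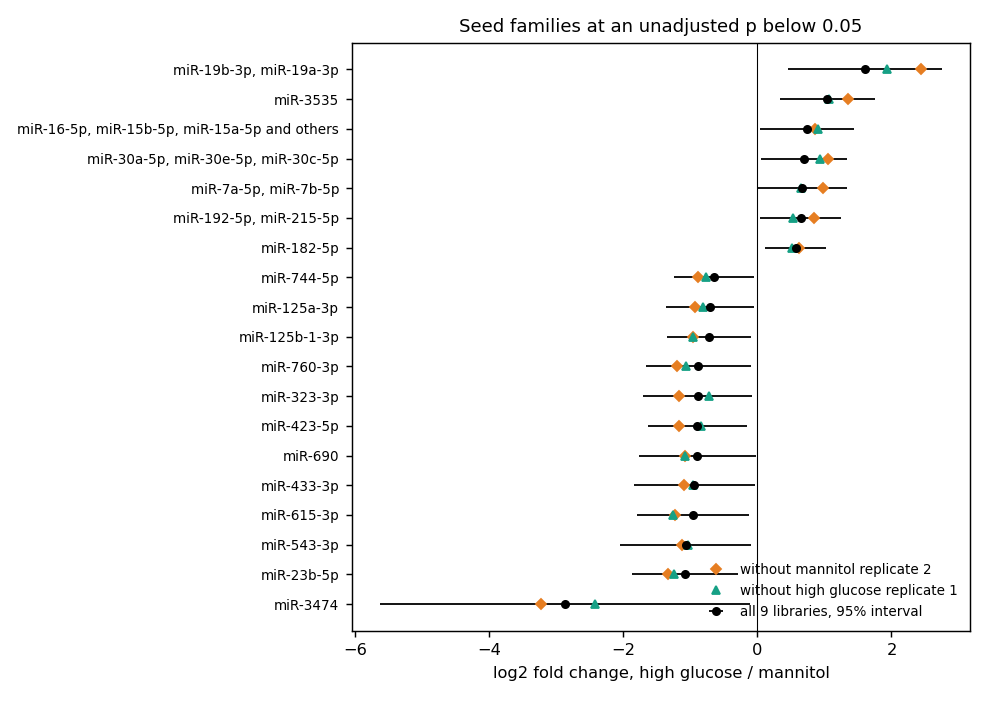
Log2 fold change of high glucose over mannitol for the 19 seed families with an unadjusted p under 0.05, labelled by their miRNAs; black points and lines are the fit of all 9 libraries with its 95% interval, diamonds leave out mannitol replicate 2 and triangles high glucose replicate 1. In the miR-19 family the diamond at 2.44 lies well beyond the black point at 1.61.

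The ratio of the 5p to the 3p arm of a hairpin is taken within a library and does not depend on scaling. Of 41 hairpins with both arms at 10 or more counts in every library 0 passed (percent called 0) in limma, with a smallest adjusted p of 0.469, and 4 (9.76%) had an unadjusted p under 0.05, 2 with a higher ratio (4.88%) and 2 with a lower (4.88%). In 6 (14.6%) the groups did not overlap, 4 higher (9.76%) and 2 lower (4.88%). For miR-503, a miRNA of a chromosome X cluster, log2 of 5p over 3p counts was -1.44, -1.19 and -1.45 in high glucose and -2.86, -1.73 and -2.88 with mannitol. The difference was 1.13 (SE 0.39), and 1.51 without mannitol replicate 2, with an adjusted p of 0.0250 in limma. Its 5p counts were only 15 to 60. For miR-23b the ratio was -3.93, -4.21 and -3.99 against -2.85, -3.86 and -2.73, a difference of -0.90 (SE 0.40), and its 5p arm is among the lower miRNAs named above. For miR-382 it was 0.39, -0.08 and 0.11 against 1.25, 0.65 and 1.18, a difference of -0.89 (SE 0.35). With the replicate block 7 hairpins had an unadjusted p under 0.05 and 0 passed.

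Over whole libraries the 5p arms held 64.6%, 67.9% and 67.2% of arm-named counts in high glucose and 60.6%, 64.0% and 63.4% with mannitol. All high glucose libraries were higher (exact permutation test, p = 0.1, adjusted p = 0.545), and normal glucose gave 63.5%, 68.0% and 66.1%. The 10 most abundant miRNAs held 56.0%, 61.2% and 61.8% of counts in high glucose and 51.6%, 58.5% and 51.9% with mannitol (exact permutation test, p = 0.2, adjusted p = 0.545). The groups overlapped only through mannitol replicate 2.

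Fold changes went with base composition. Of 48 miRNAs with a GC content under 40%, 39 were higher in high glucose, at a median log2 fold change of 0.46. Of 55 miRNAs with 60% GC or more, 53 were lower, at a median of -0.50. The remaining classes had medians of 0.18 (40% to 50%, 71 of 103 higher) and -0.34 (50% to 60%, 69 of 102 lower). Spearman's rho across the 308 miRNAs was -0.61, and -0.64 without mannitol replicate 2. These miRNAs share the same libraries, so the correlation is a description. All 9 miRNAs that lay wholly above mannitol had under 50% GC.

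The trend with GC content also differed between libraries of a group. Relative to the mean library, log2 level per 10 points of GC was 0.05, -0.27 and -0.17 in high glucose, and 0.30, -0.16 and 0.27 with mannitol. Normal glucose gave 0.19, -0.09 and -0.12. Mannitol replicate 2 thus lay among the high glucose libraries, and the groups overlapped (exact permutation test, p = 0.2, adjusted p = 0.545). Between libraries of the same number the value was lower in high glucose in 3 of 3 pairs (paired exact permutation test, p = 0.25, the smallest that 3 pairs can give). With the GC trend removed from each library, 16 miRNAs had an unadjusted p under 0.05 in edgeR and 0 passed. miR-760-3p, with 70% GC, then had a log2 fold change of 0.03 and miR-155-5p of 0.09, while miR-3535 was at 0.72, miR-19b-3p at 1.29, miR-182-5p at 0.54, miR-30a-5p at 0.60 and miR-23b-5p at -0.93. The part of base composition in the differences between groups was not tested.

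**Figure D5:**
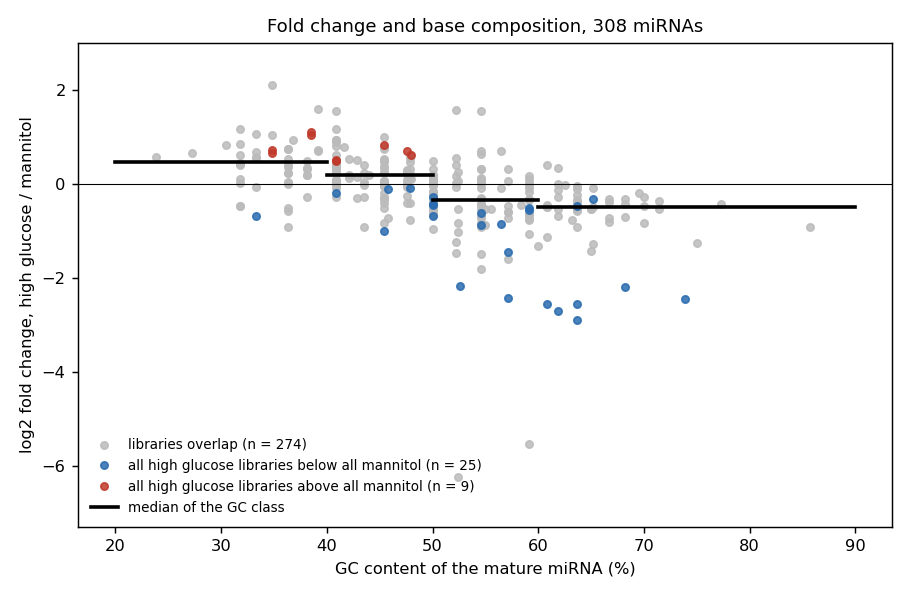
Log2 fold change of high glucose over mannitol against the GC content of the mature miRNA for 308 miRNAs; colours mark miRNAs whose libraries do not overlap between groups and black bars are medians of 4 GC classes. The medians step down from 0.46 under 40% GC to -0.50 at 60% or more.

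Short motifs, some of which have been tied to the sorting of miRNAs into vesicles, were counted in the mature sequences, on the miRNA strand only. GGAG was in 34 of 308 (11.04%), and 23 of these were lower, with a median log2 fold change of -0.32 against -0.02 for the rest. CCCU was in 28 (9.09%), with 25 lower and a median of -0.48 against 0.01. Both sets are richer in GC, with medians of 55.3% and 61.0% against 47.8% in the rest. With the GC trend removed the medians were -0.01 against -0.03 for GGAG and -0.25 against -0.03 for CCCU. GGG was in 95 (30.8%), with a median of -0.33 against 0.04, and of -0.05 against -0.02 with the GC trend removed. UGUG was in 47 (15.3%), with a median of -0.05 against -0.02. A match describes the sequence only and shows no binding.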

How the data were processed

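Small RNA libraries of podocyte vesicles were sequenced. Per the file headers, the deposited tables give total counts per miRNA and a normalized value, which equals RPM of 1 constant per library (21.2 to 31.9, in units of 1000000); the deposited RPM values were used only to recover that constant. The meaning of that constant and the aligner's settings were not given in the sources used here; BWA, bcl2fastq and the build mm10 are named, per the submitters' processing notes. Counts were used as deposited. Levels are CPM of all miRNA counts of a library, which ranged from 725211 to 2553690 in these 6 libraries. No count from 1 to 9 occurred.

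The main test was that of edgeR 4.0.16 under R 4.3.3 (TMM, expression filter by group, robust quasi-likelihood test, Benjamini-Hochberg adjustment, threshold 0.05), with the 9 libraries in a joint fit. SE was the log2 fold change over the square root of F. Seed families were tested the same way on summed counts, arm ratios with limma 3.58.1 on log2 ratios with 0.5 added to each count, and library measures by two-sided exact permutation, adjusted over 30 measures. The scripts were tested on simulated data. Alternatives were DESeq2 1.42.0, limma-voom, other scaling, filters and handling of zeros, a replicate block, removal of the GC trend, and leaving out each library. Where 1 library of a group was left out, the spread was pooled over groups. miRNAs without a RefSeq sequence stayed as they were when the GC trend was removed.

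Named miRNAs were the 10 with the smallest unadjusted p in each direction, none having passed, those at a mean of at least 1000 CPM without overlap of groups, the 10 most abundant and 2 per list, besides 3 seed families and 3 hairpins per direction. Other miRNAs named in the text were chosen after their values were seen. The comparison, lists and rules were chosen with earlier results of these data known. Groups came from the treatment labels and replicate numbers from the titles, whose first has no number and was taken as 1. The labels do not say that equal numbers share a batch. Deviations from the group means correlated at 0.561, 0.594 and 0.122 for high glucose and mannitol libraries with numbers 1, 2 and 3, each above 0.1. The numbers were therefore treated as pairing these libraries in the replicate block. Unlike numbers gave 0.199 (high glucose replicate 1, mannitol replicate 3) and 0.163 (high glucose replicate 3, mannitol replicate 2), above the value of number 3. The other unlike pairs lay from -0.570 to -0.337. Over 3 and 3 libraries this is a hint from the data, and weak for number 3. Counts of libraries within a group differed beyond sampling noise, with a chi-square per degree of freedom of 74.8 to 645, so none was counted as deposited more than once. Matching of coordinates used GENCODE M21.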

Additional observations from a re-analysis of the deposited data

How the results depend on the processing

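For miRNAs 0 passed in the main analysis, 1 with DESeq2 (0 without the expression filter) and 3 without the expression filter in edgeR. Those 3 were miR-19b-3p, higher at an adjusted p of 0.0421, and miR-1a-3p and miR-6538, lower. miR-6538 rested on 1 library, with 242 CPM in mannitol replicate 1 and 6.61 CPM in mannitol replicate 3. It was listed at 0 in mannitol replicate 2 and in all high glucose libraries. Leaving out 1 library gave 0 to 1 miRNAs, 0 to 12 seed families and 0 to 1 hairpins, and each maximum came without mannitol replicate 2. For seed families DESeq2 gave 1 and the missing filter 2. With the replicate block 0 miRNAs, 0 seed families and 0 hairpins passed. With the replicate block and these 6 libraries only, a setting added after the data were seen, 0 miRNAs and 2 seed families passed, those of miR-3535 (log2 fold change 1.17, adjusted p 0.0398) and miR-19 (1.79, adjusted p 0.0293, edgeR). The block changed no other call. At an unadjusted p under 0.05 the count of 19 miRNAs became 29 with limma-voom, 32 without the filter, 57 with listed zeros set to 9 reads, 62 (1 higher, 61 lower) scaled to the library constant, 29 with the block and the GC trend removed and 65 with the block in 6 libraries. Of the 20 miRNAs with the smallest p, 18 kept their sign under every alternative; miR-760-3p turned with the GC trend removed and miR-183-5p scaled to the library constant. Of all 60 named miRNAs 33 kept it. The causes of these differences were not tested. Depth limits rare miRNAs most, since 10 reads are 13.8 CPM in the shallowest library.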

Other observations

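Genomic clusters joined hairpins within 10 kb of each other and used only miRNAs with a single locus. Of 16 clusters with at least 3 tested arms, the miR-17 cluster on chromosome 14 had the highest median log2 fold change. It was at 0.63 (1.19 without mannitol replicate 2), with 3 of 4 arms higher. These arms were miR-17-5p, miR-18a-3p, miR-19a-3p and miR-20a-5p. miR-19b-3p, at 1.58, and miR-92a-3p, at -0.61, were not among them, so the median does not describe the whole cluster. The cluster of miR-182, miR-96 and miR-183 on chromosome 6 followed at 0.49, with 3 of 5 arms higher, and was at -0.09 when scaled to the library constant, where the miR-17 cluster was at 0.19. The lowest medians were -0.34 for miR-433 and miR-127 on chromosome 12 and -0.32 for the let-7b and let-7c-2 hairpins on chromosome 15. The chromosome X cluster of miR-322, miR-503, miR-351, miR-542 and miR-450b had a median of -0.01, and of 0.47 without mannitol replicate 2.

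miR-9-5p, a neural miRNA, was at 254 CPM in high glucose replicate 1 and 96.3 CPM in mannitol replicate 1, against 5.87 to 27.8 CPM in the other libraries of both groups.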
